A study of Mus musculus with 18 samples.

Results

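The 31 genes described here make, sense and move sterols or make fatty acids. They were chosen by name out of 50600 gene identifiers per library, with earlier results of these data known. They fall into 18 genes of sterol synthesis, 6 genes of sterol sensing and transport (Insig1, Insig2, Srebf1, Srebf2, Scap and Stard4) and 7 genes of fatty acid synthesis (Scd1, Scd2, Fasn, Acaca, Acly, Acss2 and Elovl6). RNA came from C2C12 cells, a mouse myoblast line that divides in growth medium (GM) and fuses into myotubes in differentiation medium. Stable lines of 3 kinds were compared, each after 2 days in differentiation medium (DM2) and in GM: cells depleted of ERK3 after transfection with px459-Mapk6sg, cells depleted of MK5 after transfection with px459-Mk5sg, and control cells transfected with a control plasmid. The labels do not give the amount of ERK3 or MK5 protein left in the depleted lines. The gene Mapk6 encodes ERK3, one of the atypical MAP kinases, and Mapkapk5 encodes MK5, a kinase that ERK3 binds. Each of the 6 groups holds 3 libraries, 18 in all. The labels do not say whether the 3 libraries of a group are separate clones or separate cultures, so the p-values reflect no more than the spread among these libraries, which may be technical. All genes were read from whole cultures, in which fewer cells of a type and less RNA per cell cannot be told apart.

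Cells build cholesterol from acetyl-CoA through mevalonate, isoprenoid diphosphates, squalene and lanosterol, and build fatty acids from acetyl-CoA through malonyl-CoA. Both branches are controlled by the SREBP transcription factors, encoded by Srebf1 and Srebf2, which sit in the endoplasmic reticulum with their escort Scap and are held there by Insig1 and Insig2 when sterols are plentiful. When sterols run low, the complex moves to the Golgi, where proteases release the active factor. Dividing cells and fusing myoblasts both need new membrane, and Insig1 is itself an SREBP target in mammalian cells.

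The promoters of 4 members are printed because they stand for the 3 groups of genes: Hmgcs1 and Mvd for sterol synthesis, Insig1 for sterol sensing and Fasn for fatty acid synthesis. The sequences come from RefSeq on GRCm38.p6 and run 5′ to 3′ on the gene's own strand, from 250 bases before RefSeq's start up to that start. The Insig1 stretch is shorter, 201 bases, because it stops where the GENCODE M21 gene begins, and distances below are counted from RefSeq's start. Capitals mark CCAAT boxes (CCAAT or its complement ATTGG), the sterol regulatory element TCACNCCAC and the E-box CACGTG. Hmgcs1 is at chr13:119690101-119690350 (plus strand), Mvd at chr8:122443423-122443672 (minus strand), Insig1 at chr5:28071162-28071362 (plus strand) and Fasn at chr11:120824548-120824797 (minus strand).
Hmgcs1: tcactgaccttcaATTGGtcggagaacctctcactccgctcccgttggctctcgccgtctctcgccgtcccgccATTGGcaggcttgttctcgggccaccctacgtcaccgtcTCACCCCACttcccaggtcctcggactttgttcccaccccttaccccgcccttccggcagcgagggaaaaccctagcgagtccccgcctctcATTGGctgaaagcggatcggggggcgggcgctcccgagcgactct
Mvd: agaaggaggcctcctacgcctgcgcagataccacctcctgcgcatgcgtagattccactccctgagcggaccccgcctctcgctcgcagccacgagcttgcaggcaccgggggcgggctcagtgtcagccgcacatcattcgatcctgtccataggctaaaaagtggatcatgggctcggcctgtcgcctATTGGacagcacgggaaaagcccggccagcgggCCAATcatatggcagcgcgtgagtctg
Insig1: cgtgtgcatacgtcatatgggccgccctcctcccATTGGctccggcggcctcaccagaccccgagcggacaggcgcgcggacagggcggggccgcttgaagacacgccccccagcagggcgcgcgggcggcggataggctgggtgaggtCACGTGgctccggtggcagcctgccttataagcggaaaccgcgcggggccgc
Fasn: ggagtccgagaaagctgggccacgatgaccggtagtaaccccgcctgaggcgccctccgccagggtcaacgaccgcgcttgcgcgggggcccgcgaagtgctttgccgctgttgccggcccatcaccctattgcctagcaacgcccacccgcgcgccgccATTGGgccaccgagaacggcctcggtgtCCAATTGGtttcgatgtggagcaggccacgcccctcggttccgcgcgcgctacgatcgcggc

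RefSeq windows of 250 bases were found for 25 of the 31 members, and both strands were searched. CCAAT was present in 20 of these 25 genes, against 37.5% of all 27025 genes in the table, and the GC box GGGCGG in 21 of 25, against 35.4%. The E-box CACGTG was present in 5 of 25 genes (6.86% of all genes), and TCACNCCAC in 1 of 25, Hmgcs1 (1.22% of all genes). In Hmgcs1 the sterol element begins 137 bases upstream of the start and lies between CCAAT boxes. In Fasn, CCAAT and its complement overlap at 62 and 59 bases upstream. These are matches of letters, and a window without a match says nothing about which factors act on the gene.

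Gene counts summed to 17.5 to 23.4 M per library, and all 31 members were among the 13939 genes that passed the filter on low counts. A gene is called where the Benjamini-Hochberg adjusted p of edgeR's quasi-likelihood test over all 13939 genes is under 0.05. CPM are counts scaled to a common library size, with TMM factors, and log2 fold changes are given ± standard error. Mapk6 had 115, 105 and 133 CPM in ERK3-depleted GM libraries, against 150.4, 119 and 124 CPM in control GM libraries, and the groups overlapped (log2 -0.15 ± 0.12, adjusted p = 0.464). At DM2 it had 116, 96.8 and 136 CPM in ERK3-depleted libraries, against 219, 207 and 204 CPM in control libraries, with no overlap (log2 -0.86 ± 0.12, adjusted p = 2.18e-05). Mapk6 was also lower in MK5-depleted than in control cells at DM2, with 161, 153 and 163 CPM in MK5-depleted libraries (log2 -0.40 ± 0.12, adjusted p = 0.0115), so its lower level than control at DM2 was not limited to the ERK3-depleted line. Between GM and DM2 the mean of Mapk6 went from 118 to 116 CPM in ERK3-depleted cells. It went from 164 to 159 CPM in MK5-depleted and from 131 to 210 CPM in control cells. Mapkapk5, with at most 32 reads in any library, was lower in MK5-depleted cells at DM2 (log2 -0.68 ± 0.26, adjusted p = 0.0443), at 0.884, 0.601 and 0.947 CPM, against 1.55, 1.02 and 1.34 CPM in control libraries. It was at log2 -0.55 ± 0.27 in MK5-depleted GM cells (adjusted p = 0.232) and at -0.57 ± 0.26 in ERK3-depleted cells at DM2 (adjusted p = 0.0751). Counts over a whole gene do not check a small deletion at a guide's site. Myoblast markers were present in every library (Des at 929.6 CPM or more). The defining fat cell markers Plin1 and Cidec had no read in any library and Adipoq at most 2, and the liver markers Alb and Ttr had none.

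Libraries stand apart in both media, and counts of calls from fits without them are given beside the main counts. Shares of all genes called are given beside the main counts only. A lower count in another fit may thus not be particular to the members. Control GM library 2 was the lowest of the 9 GM libraries for 29 of the 31 members, and the highest for the other two, Insig2 and Scap. It also had the lowest summed level of 12 cell cycle genes among GM libraries, 1354 CPM, against 2033 and 1693 CPM in control libraries 1 and 3. At DM2 the share of reads outside genes was 5.55, 7.73 and 3.79% in ERK3-depleted libraries and 3.96, 4.11 and 2.84% in MK5-depleted ones, against 2.44 to 3.05% in control. The 4 libraries with the most such reads were ERK3-depleted and MK5-depleted 1 and 2.

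**Figure D1:**
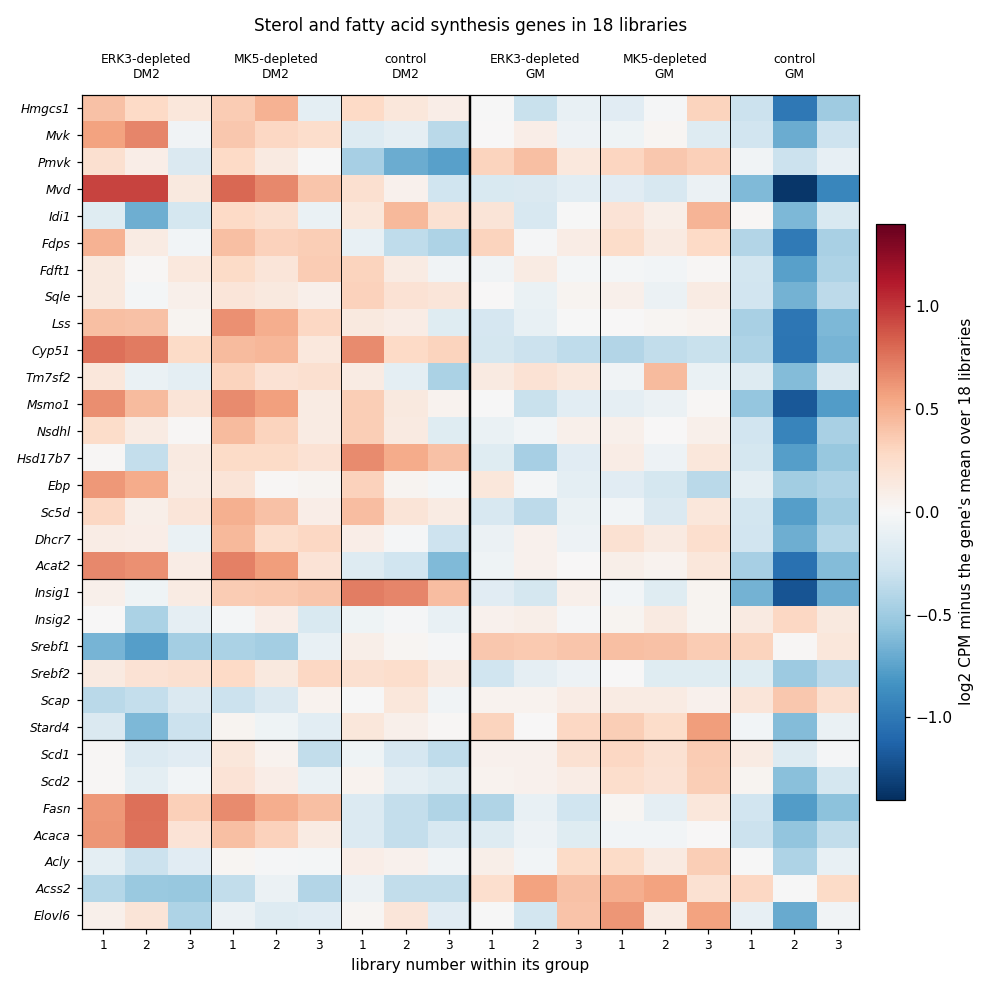
Heat map of log2 CPM of each of the 31 genes in each library, minus that gene's mean over the 18 libraries (colour scale in log2 units). Columns are the 3 libraries of each group, rows follow sterol synthesis, sterol sensing and transport, and fatty acid synthesis, split by black lines, and control GM library 2 is the lowest GM library for 29 of the 31 genes.

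Levels differed widely among the members. Per unit of transcript length, in the deposited TPM (RSEM's transcript share, not scaled between libraries), Scd2, a desaturase that puts the double bond into stearate and palmitate, had the highest mean in each of the 6 groups, with a median over libraries of 469 TPM. The isoprenoid enzyme Fdps followed in each group, at a median of 409 TPM, and Acss2, which makes acetyl-CoA from acetate, was the lowest in each, at 5.02 TPM. The order between them varied by group. Hmgcs1, which makes HMG-CoA, had a median of 172 TPM and in control DM2 cells a mean of 236 TPM, under the 262 TPM of Cyp51. Hsd17b7, a ketosteroid reductase of the later sterol pathway, had a median of 10.6 TPM and a mean of 21.2 TPM in control DM2 cells. Of the regulators, Srebf2 stood at 98.0, Insig1 at 83.8, Srebf1 at 47.7, Insig2 at 39.3, Stard4 at 21.5 and Scap at 21.4 TPM. The ranges over libraries of Stard4 (8.93 to 33.5 TPM) and Scap (10.5 to 27.6 TPM) overlapped, as did those of Insig1 (34.2 to 147 TPM) and Srebf2 (73.3 to 146 TPM).

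For some members the counts of uniquely mapped reads were well below RSEM's expected counts, so their values are uncertain. They were 2.13 to 4.66% of RSEM's expected counts for Idi1, the isopentenyl diphosphate isomerase, and 6.20 to 7.96% for Fdps. The share was 36.9 to 71.7% for Acaca, 47.3 to 70.6% for Insig1 and 63.3 to 89.7% for Acat2. The share was not constant over groups: for Acaca it averaged 64.9% in ERK3-depleted DM2 cells and 40.6% in control DM2 cells. Gm43738 and Gm22935 overlap Fdps on its strand, and Gm37391 overlaps Acaca. The parts of overlapping genes and of shared sequence in these shares were not tested. Fold changes from RSEM expected counts are given beside those of these genes.

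In GM all 18 sterol synthesis genes had log2 fold changes above 0 in both depleted lines, and no member of the 31 was called lower. In ERK3-depleted cells 11 of 31 members were called higher, while 3.72% of all genes tested were called higher and 3.06% lower (6.79% in either direction). In MK5-depleted cells 19 of 31 were called higher, while 4.71% of all genes were called higher and 3.74% lower (8.45% in either direction). The 31 genes were chosen with earlier results of these data known, so these shares are no independent support. The median log2 fold change of the 18 sterol synthesis genes was 0.44 in ERK3-depleted and 0.54 in MK5-depleted cells, against -0.01 over all genes tested in each comparison. In GM 18 members had every ERK3-depleted library above every control library, as did 15.8% of all genes tested, and 26 had every MK5-depleted library above every control library, as did 16.5% of all genes. The 2 comparisons share their control libraries.

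Both sets of GM calls rest on few libraries. The share of all genes called in each of the fits below is not given here. Without control GM library 2, no member was called in ERK3-depleted cells and 2 in MK5-depleted cells (Insig1, log2 0.62, adjusted p = 0.029, and Dhcr7, log2 0.53, adjusted p = 0.046), and the sterol synthesis medians were 0.32 and 0.42. The ERK3 count was 17 without control library 1, 2 without control library 3, 0 without ERK3-depleted library 1 and 7 without ERK3-depleted library 3. The MK5 count was 10 without control library 3, 8 without MK5-depleted library 1 and 4 without MK5-depleted library 3. Because same-numbered libraries deviated together, the GM libraries of each depleted line were treated as paired with those of control. With the number as a block, Mvk, Cyp51, Tm7sf2, Ebp, Stard4, Scd2 and Acly were called higher as well in ERK3-depleted cells, which made 18, with log2 values of 0.28 (Acly) to 0.48 (Tm7sf2) and adjusted p of 0.00968 to 0.0489. In MK5-depleted cells the block added Idi1 (0.52, adjusted p = 0.0392), Scd1 (0.31, adjusted p = 0.0439) and Acaca (0.37, adjusted p = 0.0328). What follows gives calls without the block.

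**Figure D2:**
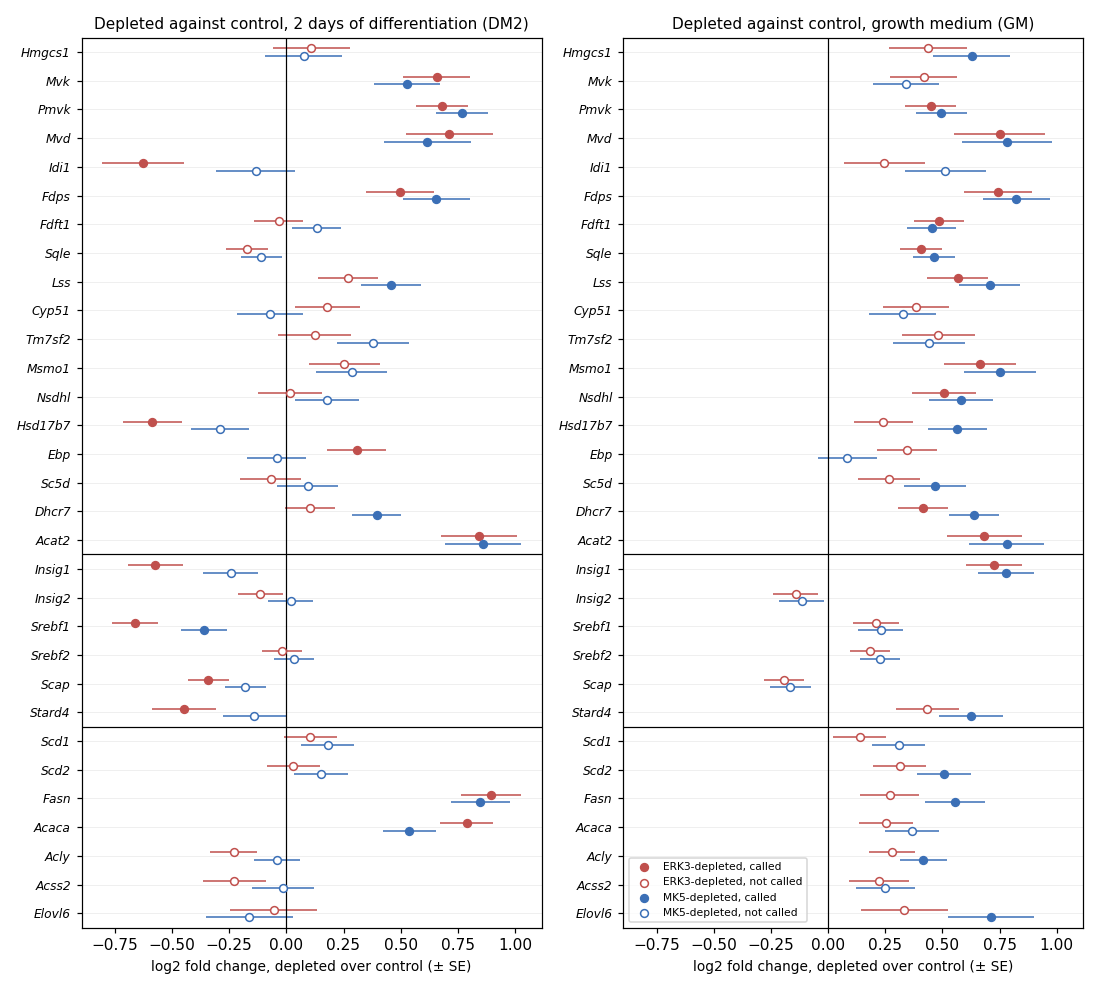
Log2 fold change of each member, depleted over control, at DM2 (left) and in GM (right), with ERK3-depleted cells in red, MK5-depleted cells in blue, points from 3 libraries per group, bars of ± standard error and filled points for an adjusted p under 0.05 in edgeR's quasi-likelihood test. In GM 29 of 31 points lie above 0 in each line, while at DM2 Insig1, Srebf1, Scap and Stard4 lie below 0 in both lines.

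On uniquely mapped reads Mvd, Fdps and Acat2 had the largest GM fold changes of the 18 sterol synthesis genes in both lines. All 3 belong to the early part of the pathway. With the RSEM values given below for Acat2 and Fdps, this order need not hold. Mvd, which decarboxylates mevalonate diphosphate, had 37.0, 37.3 and 38.9 CPM in ERK3-depleted, 38.5, 36.8 and 40.6 CPM in MK5-depleted and 27.9, 16.8 and 22.8 CPM in control GM libraries. All 6 depleted libraries lay above all 3 control libraries, and the log2 fold changes were 0.75 ± 0.20 in ERK3-depleted cells (adjusted p = 0.0312) and 0.78 ± 0.20 in MK5-depleted cells (adjusted p = 0.0223). Acat2, the cytosolic thiolase that makes acetoacetyl-CoA, had 107, 117 and 112 CPM in ERK3-depleted, 118, 116 and 126 CPM in MK5-depleted and 81.3, 54.4 and 73.7 CPM in control libraries. Its groups did not overlap either, with log2 fold changes of 0.68 ± 0.17 (adjusted p = 0.0231) for ERK3 and 0.78 ± 0.17 (adjusted p = 0.0103) for MK5. On RSEM counts those Acat2 values were 0.63 and 0.77. Fdps, which joins isoprene units to farnesyl diphosphate, had 31.2, 24.8 and 27.0 CPM in ERK3-depleted, 30.0, 27.3 and 30.4 CPM in MK5-depleted and 18.8, 12.6 and 18.2 CPM in control libraries, with all depleted libraries above control. It was higher by 0.74 ± 0.15 (adjusted p = 0.0131) in ERK3-depleted and by 0.82 ± 0.15 (adjusted p = 0.00562) in MK5-depleted cells. On RSEM counts those Fdps values were 0.71 and 0.72.

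Pmvk, the phosphomevalonate kinase, was the fourth early enzyme called in both lines, at 0.45 ± 0.11 (adjusted p = 0.0255) and 0.49 ± 0.11 (adjusted p = 0.014). Hmgcs1 was called in MK5-depleted cells (log2 0.63 ± 0.17, adjusted p = 0.0296) and not in ERK3-depleted cells (log2 0.44 ± 0.17, adjusted p = 0.122), and the depleted lines were not called different from each other for it (adjusted p = 0.746). Mvk, the mevalonate kinase, and Idi1 were not called in either line in GM (log2 0.42 and 0.25 in ERK3-depleted, 0.34 and 0.51 in MK5-depleted cells). On RSEM counts Idi1 was at 0.46 (adjusted p = 0.0825) in ERK3-depleted and 0.64 (adjusted p = 0.0212) in MK5-depleted GM cells, the second a call. The unique-read values of Idi1 rest on 5.46 to 12.2 CPM over all libraries.

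From squalene onwards, Fdft1 (squalene synthase), Sqle (squalene epoxidase), Lss (lanosterol synthase), Msmo1 and Nsdhl (which remove methyl groups from lanosterol) and Dhcr7 (a late sterol reductase) were called higher in both lines in GM. Their log2 fold changes ran from 0.41 (Sqle) to 0.66 (Msmo1) in ERK3-depleted cells and from 0.45 (Fdft1) to 0.75 (Msmo1) in MK5-depleted cells. Msmo1 had 246, 199.5 and 223 CPM in ERK3-depleted, 227, 234 and 251 CPM in MK5-depleted and 169.9, 109 and 144 CPM in control GM libraries. The lowest depleted library of Msmo1 stood above the highest control library, and control library 2 was the lowest of all. Hsd17b7 had 38.1, 31 and 38.6 CPM in ERK3-depleted, 46.0, 41.0 and 47.8 CPM in MK5-depleted and 36.2, 25.2 and 29.8 CPM in control GM libraries, and its MK5-depleted libraries alone lay wholly above control. Hsd17b7 and Sc5d, a sterol desaturase, were called in MK5-depleted and not in ERK3-depleted cells, at 0.57 ± 0.13 (adjusted p = 0.0146) and 0.47 ± 0.14 (adjusted p = 0.0398), while the direct comparison of MK5-depleted with ERK3-depleted GM cells called neither (adjusted p = 0.53 and 0.676). Cyp51 (lanosterol demethylase), Tm7sf2 (a sterol reductase) and Ebp (a sterol isomerase) were not called in either line, with log2 values of 0.38, 0.48 and 0.35 in ERK3-depleted cells, and of 0.33, 0.44 and 0.08 in MK5-depleted cells.

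Among the regulators in GM, Insig1 rose in both depleted lines. It had 98.3, 92.3 and 115 CPM in ERK3-depleted, 107, 97.8 and 113 CPM in MK5-depleted and 69.4, 47.7 and 67.9 CPM in control libraries (ENSMUSG00000045294.11, chromosome 5, 28071363 to 28078662, plus strand, GENCODE M21 on GRCm38). The groups did not overlap, and Insig1 was 1.65-fold higher in ERK3-depleted cells (log2 0.73 ± 0.12, adjusted p = 0.0079) and 1.72-fold higher in MK5-depleted cells (log2 0.78 ± 0.12, adjusted p = 0.00306). On RSEM counts the values were 0.75 and 0.78. Without control library 2 the ERK3 value was 0.57 (adjusted p = 0.0942). Stard4, a cytosolic sterol transfer protein, had 91.9, 74.0 and 90.2 CPM in ERK3-depleted, 93.4, 88.2 and 111 CPM in MK5-depleted and 72.0, 48.3 and 69.3 CPM in control libraries. It was called in MK5-depleted cells (log2 0.62 ± 0.14, adjusted p = 0.0125) and not in ERK3-depleted cells (log2 0.43 ± 0.14, adjusted p = 0.066).

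The SREBP genes, their escort and the second Insig gene were not called in GM. Srebf1 had 136, 135 and 138 CPM in ERK3-depleted, 141, 139.7 and 135 CPM in MK5-depleted and 130.5, 106 and 117 CPM in control GM libraries. All 6 depleted Srebf1 libraries lay above the 3 control libraries, by log2 0.21 (adjusted p = 0.206) and 0.23 (adjusted p = 0.162). Srebf2 had 354, 392 and 407 CPM in ERK3-depleted, 429, 381 and 380.1 CPM in MK5-depleted and 382, 302 and 333 CPM in control libraries, and these overlapped. Insig2 had 81.2, 82.3 and 76.8 CPM in ERK3-depleted, 80.0, 84.9 and 79.9 CPM in MK5-depleted and 84.8, 95.1 and 85.2 CPM in control libraries. For Insig2, control library 2 was the highest of the 9, and the log2 values were -0.14 and -0.12. Scap had 69.5, 69.4 and 72.5 CPM in ERK3-depleted, 72.9, 72.7 and 69.8 CPM in MK5-depleted and 75.8, 87.3 and 78.4 CPM in control libraries, with every depleted library below every control library and log2 values of -0.19 (adjusted p = 0.193) and -0.16 (adjusted p = 0.274).

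Of the 7 fatty acid synthesis genes, none was called in ERK3-depleted GM cells and 4 were called higher in MK5-depleted GM cells. Elovl6, which extends palmitate, had 112, 78.8 and 107 CPM in MK5-depleted and 67.0, 44.6 and 70.2 CPM in control libraries (log2 0.71 ± 0.19, adjusted p = 0.028). Fasn, the fatty acid synthase, had 231, 209 and 254 CPM in MK5-depleted and 188, 132 and 152 CPM in control libraries (log2 0.56 ± 0.13, adjusted p = 0.0161). For both genes the lowest MK5-depleted library was above the highest control library. Scd2 had 2502, 2417 and 2682 CPM in MK5-depleted and 2158, 1409 and 1784 CPM in control libraries, also without overlap. Scd2 (0.51 ± 0.12, adjusted p = 0.0149) and Acly, the citrate lyase that supplies cytosolic acetyl-CoA (0.42 ± 0.10, adjusted p = 0.0187), were the other two calls. Acaca, which makes malonyl-CoA, Scd1 and Acss2 were at 0.37, 0.31 and 0.25 without a call, and RSEM counts gave 0.42 (adjusted p = 0.0124), a call, for Acaca. All 4 calls were lost without control GM library 2. The depleted lines were not called different from each other for any of the 7 genes.

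Other gene groups moved in GM along with these. Of 12 cell cycle genes, 4 were called higher in ERK3-depleted and 8 in MK5-depleted cells (3.72 and 4.71% of all genes), and their summed level was 2184 to 2519 CPM in ERK3-depleted, 2343 to 2812 CPM in MK5-depleted and 1354 to 2033 CPM in control GM libraries. Of 5 fibroblast markers tested, 4 were called lower and none higher in each line: Pdgfra, Dcn, Dpt and Pi16 (Dcn by log2 -1.32 ± 0.36 in ERK3-depleted and -1.71 ± 0.37 in MK5-depleted cells). Their summed level, 653 to 738 CPM in ERK3-depleted, 691 to 836 CPM in MK5-depleted and 519.9 to 709 CPM in control GM libraries, is nearly all Col1a1, the fifth, which averaged 669.9, 721 and 569.5 CPM and was not called (log2 0.23 ± 0.13 and 0.34 ± 0.13). Whether growth rate or cell makeup had a part in the sterol gene differences was not tested.

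At DM2 the 31 genes split. In ERK3-depleted cells 8 were called higher and 6 lower than control, in a comparison where 28% of all genes tested were called higher and 27.8% lower (55.8% in either direction). In MK5-depleted cells 9 were called higher and 1 lower, where 22.2% of all genes were called higher and 22.9% lower (45.1% in either direction). Sterol synthesis had a median log2 fold change of 0.15 in ERK3-depleted and 0.23 in MK5-depleted cells, sterol sensing and transport -0.39 and -0.16, and fatty acid synthesis 0.03 and 0.15, against 0.01 and 0.00 over all genes tested. Acat2, Mvk, Pmvk, Mvd, Fdps, Fasn and Acaca were called higher in both lines. All 6 regulators had log2 values below 0 in ERK3-depleted cells and 4 of them were called lower. The share of members called was no higher than that of all genes in either line, so these counts do not set the 31 genes apart. The 2 comparisons share their control libraries.

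The DM2 split depends on scaling and on the libraries with many reads outside genes. The counts below come without the share of all genes called in each fit. A change in them may not be particular to the members. With length and GC trends removed, 11 members were called higher and 3 lower in ERK3-depleted cells and 9 higher and 2 lower in MK5-depleted cells. With the percentage of reads outside genes entered as a covariate, the ERK3 counts were 2 higher (Pmvk and Fasn) and 1 lower (Srebf1), and the MK5 counts 8 and 1, without Mvd. Without the 4 libraries with the most such reads they were 3 higher (Pmvk, Fasn and Acaca) and 1 lower (Srebf1) for ERK3 and 6 higher and none lower for MK5 (without Mvd, Lss, Dhcr7 and Srebf1), in a fit that leaves 1 library in each depleted DM2 group and assumes that it varies like the other groups. TPM as deposited put the median of all genes tested at -0.46 in ERK3-depleted and -0.29 in MK5-depleted cells, and called 1 member higher and 24 lower, and 2 higher and 11 lower. On that scale the sterol synthesis medians were -0.47 and -0.14, at and above those all-gene medians. TPM scaled by TMM called 5 higher and 9 lower in ERK3-depleted cells and 7 higher and 6 lower in MK5-depleted cells.

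**Figure D3:**
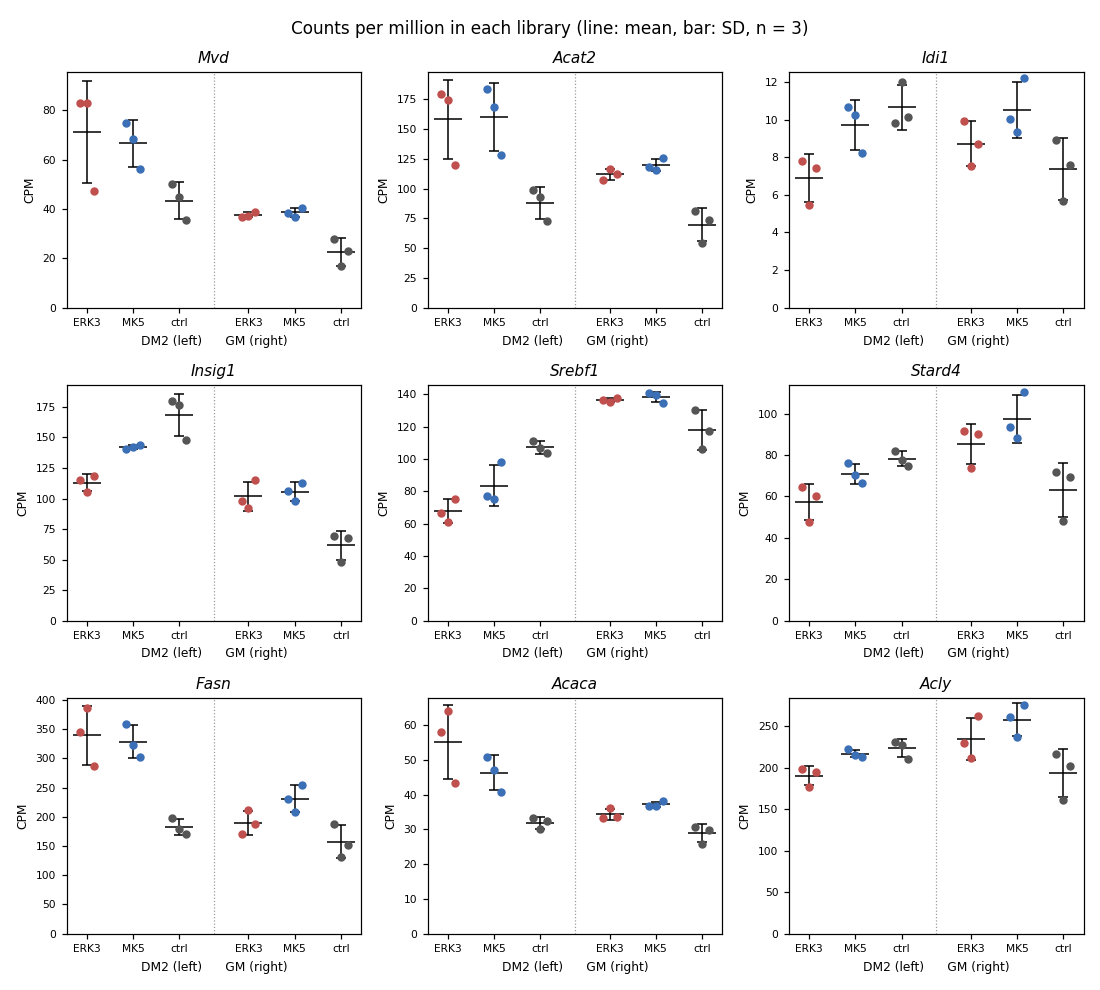
CPM of 9 members in every library, with ERK3-depleted (red), MK5-depleted (blue) and control (grey) libraries at DM2 on the left of each panel and in GM on the right. Lines are means and bars SD of 3 libraries, axes start at 0, and at DM2 Fasn and Acaca stand above control in all 6 depleted libraries, while Srebf1 and Insig1 stand below control in all 6.

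Of the enzymes between acetyl-CoA and isopentenyl diphosphate, Acat2, Mvk, Pmvk and Mvd were called higher in both depleted lines at DM2 and Hmgcs1 in neither (log2 0.11 and 0.08). Acat2 had 179, 175 and 120.1 CPM in ERK3-depleted, 183, 168 and 128 CPM in MK5-depleted and 98.7, 92.7 and 72.9 CPM in control DM2 libraries (ENSMUSG00000023832.13, chromosome 17, 12942890 to 12960747, minus strand). No depleted Acat2 library overlapped control, and the log2 fold changes were 0.84 ± 0.16 (adjusted p = 0.000366) and 0.86 ± 0.16 (adjusted p = 0.000544). On RSEM counts they were 0.45 (adjusted p = 0.0132) and 0.65 (adjusted p = 0.00172). Pmvk had 53.8, 49.3 and 40.0 CPM in ERK3-depleted, 56.0, 50.3 and 45.8 CPM in MK5-depleted and 33.4, 28.6 and 27.3 CPM in control libraries. Its depleted libraries were all above control, by 0.68 ± 0.11 (adjusted p = 9.10e-05) and 0.77 ± 0.11 (adjusted p = 7.73e-05).

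Mvd had 83.1, 83.0 and 47.4 CPM in ERK3-depleted, 75.0, 68.6 and 56.2 CPM in MK5-depleted and 50.1, 44.7 and 35.4 CPM in control DM2 libraries (ENSMUSG00000006517.5, chromosome 8, 122433601 to 122443422, minus strand). ERK3-depleted library 3, the one with the fewest reads outside genes, fell within the control range, and the other 5 depleted libraries lay above it. Mvd was higher by 0.71 ± 0.19 in ERK3-depleted (adjusted p = 0.00424) and 0.62 ± 0.19 in MK5-depleted cells (adjusted p = 0.0139), and with the covariate by 0.15 (adjusted p = 0.726) and 0.44 (adjusted p = 0.0506). The MK5 call was also lost without MK5-depleted library 1 or control library 3 (highest adjusted p = 0.0711). Mvk was higher by 0.66 ± 0.14 (adjusted p = 0.000995) and 0.53 ± 0.14 (adjusted p = 0.00694). Fdps had 35.2, 27.0 and 24.4 CPM in ERK3-depleted, 33.5, 31.4 and 31.8 CPM in MK5-depleted and 23.3, 19.5 and 18.6 CPM in control libraries, and no depleted library overlapped control. It was higher by 0.50 ± 0.15 (adjusted p = 0.00812) and 0.65 ± 0.15 (adjusted p = 0.00169), and on RSEM counts by 0.25 (adjusted p = 0.118) and 0.49 (adjusted p = 0.00749). Fdps was not called in ERK3-depleted cells once their library 1 was left out (adjusted p = 0.0724).

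Idi1 went the other way in ERK3-depleted DM2 cells on uniquely mapped reads, at 7.79, 5.46 and 7.42 CPM, against 9.81, 12.0 and 10.1 CPM in control. No libraries overlapped, with a log2 fold change of -0.63 ± 0.18 (adjusted p = 0.00637), but RSEM counts, which hold most of the gene's reads, gave 0.10 (adjusted p = 0.606). Its share of uniquely mapped reads averaged 2.51% in ERK3-depleted and 4.16% in control DM2 libraries.

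Of the later sterol enzymes at DM2, Hsd17b7 was lower in ERK3-depleted cells. It had 43.3, 34.2 and 46.9 CPM in ERK3-depleted, 51.6, 51.5 and 49.6 CPM in MK5-depleted and 67.9, 61.7 and 57.3 CPM in control libraries. All 6 depleted libraries lay below control, at log2 -0.59 ± 0.13 (adjusted p = 0.000899) in ERK3-depleted and -0.29 ± 0.13 (adjusted p = 0.0699) in MK5-depleted cells. With length and GC trends removed, Hsd17b7 was at -0.20 (adjusted p = 0.119) in ERK3-depleted cells. Ebp was called higher in ERK3-depleted cells (log2 0.31 ± 0.13, adjusted p = 0.0495), a call that 13 of the 18 fits with 1 library left out did not make. Lss (0.46 ± 0.13, adjusted p = 0.009) and Dhcr7 (0.40 ± 0.11, adjusted p = 0.00648) were called higher in MK5-depleted cells, Lss not without control DM2 library 3 (adjusted p = 0.0535) and at -0.19 (adjusted p = 0.279) in TPM scaled by TMM. Hmgcs1, Fdft1, Sqle, Cyp51, Tm7sf2, Msmo1, Nsdhl and Sc5d were called in neither line at DM2, and their log2 values lay between -0.17 (Sqle) and 0.25 (Msmo1) in ERK3-depleted and between -0.11 (Sqle) and 0.38 (Tm7sf2) in MK5-depleted cells.

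Of the 6 regulators at DM2, Insig1, Srebf1, Scap and Stard4 were called lower in ERK3-depleted cells and Srebf1 in MK5-depleted cells. Srebf1, which encodes the SREBP form tied to fatty acid synthesis, had 66.6, 61.2 and 75.5 CPM in ERK3-depleted, 77.1, 75.4 and 97.9 CPM in MK5-depleted and 111, 107 and 103 CPM in control libraries (ENSMUSG00000020538.15, chromosome 11, 60199089 to 60222581, minus strand). Every depleted library lay below every control library, with log2 fold changes of -0.66 ± 0.10 (adjusted p = 4.04e-05) and -0.36 ± 0.10 (adjusted p = 0.00715). Srebf1 was still called lower with the covariate, at -0.37 (adjusted p = 0.0447) and -0.27 (adjusted p = 0.0139). The MK5 call was lost without MK5-depleted library 1 or 2 (highest adjusted p = 0.055) and without the 4 libraries with the most reads outside genes (-0.12, adjusted p = 0.383). Mir6921 and Mir6922 lie within Srebf1 on its strand, and Rai1 overlaps it on the other.

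Insig1 had 115, 105 and 118 CPM in ERK3-depleted, 140.3, 142 and 144 CPM in MK5-depleted and 180.2, 177 and 148 CPM in control DM2 libraries. All 6 depleted libraries lay below control, the opposite of their order in GM. The log2 fold change was -0.57 ± 0.12 in ERK3-depleted cells (adjusted p = 0.00064) and -0.24 ± 0.12 in MK5-depleted cells (adjusted p = 0.104). On RSEM counts these were -0.16 (adjusted p = 0.284) and -0.02 (adjusted p = 0.889), and with the covariate the ERK3 value was -0.49 (adjusted p = 0.0699). Uniquely mapped reads were on average 53.3% of RSEM's count of Insig1 in ERK3-depleted and 70.0% in control DM2 libraries.

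Stard4 had 64.4, 47.6 and 60.1 CPM in ERK3-depleted, 76.0, 70.6 and 66.4 CPM in MK5-depleted and 82.1, 77.8 and 74.9 CPM in control libraries at DM2. Its ERK3-depleted libraries were all below control (log2 -0.45 ± 0.14, adjusted p = 0.0111), a call lost without ERK3-depleted library 2 (adjusted p = 0.0645) and with length and GC trends removed (-0.05, adjusted p = 0.766). The MK5-depleted libraries of Stard4 overlapped control (log2 -0.14 ± 0.14, adjusted p = 0.422). Scap had 51.7, 53.3 and 58.3 CPM in ERK3-depleted, 54.7, 58.6 and 69.5 CPM in MK5-depleted and 67.1, 74.9 and 65.0 CPM in control libraries, and was called lower in ERK3-depleted cells (log2 -0.34 ± 0.09, adjusted p = 0.00356). Srebf2, the form tied to sterol synthesis, had 467, 491 and 499 CPM in ERK3-depleted, 518, 470.1 and 523 CPM in MK5-depleted and 500.2, 509 and 468 CPM in control libraries. These overlapped, at log2 -0.02 with an interval of -0.19 to 0.15 in ERK3-depleted cells and 0.03 with -0.14 to 0.20 in MK5-depleted cells. Insig2, at 78.2, 56.9 and 71.1 CPM in ERK3-depleted, 76.4, 82.8 and 66.9 CPM in MK5-depleted and 74.2, 76.5 and 72.5 CPM in control libraries, overlapped too.

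In the fatty acid branch, Fasn and Acaca were called higher in both depleted lines at DM2, and no member was called lower. Fasn had 345, 387 and 286 CPM in ERK3-depleted, 359.6, 323 and 303 CPM in MK5-depleted and 198, 179.9 and 169.8 CPM in control DM2 libraries (ENSMUSG00000025153.9, chromosome 11, 120805846 to 120824547, minus strand). The lowest depleted library was well above the highest control library, and Fasn was 1.86-fold higher in ERK3-depleted (log2 0.89 ± 0.13, adjusted p = 2.77e-05) and 1.80-fold higher in MK5-depleted cells (log2 0.85 ± 0.13, adjusted p = 0.000107). It was still called with RSEM counts (0.87 and 0.84), with the covariate (0.58 and 0.75) and without the 4 libraries with the most reads outside genes (0.64 and 0.74).

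Acaca had 58.0, 64.1 and 43.4 CPM in ERK3-depleted, 50.8, 47.2 and 40.9 CPM in MK5-depleted and 33.2, 30.0 and 32.5 CPM in control DM2 libraries. The groups did not overlap, at log2 0.79 ± 0.12 (adjusted p = 3.13e-05) and 0.54 ± 0.12 (adjusted p = 0.00136), but RSEM counts gave 0.11 (adjusted p = 0.315) and 0.20 (adjusted p = 0.0847). TPM scaled by TMM gave -0.34 (adjusted p = 0.00697) and -0.25 (adjusted p = 0.0477), so its direction differed between these quantifications. Acly had 199, 177 and 195 CPM in ERK3-depleted, 222, 216 and 213 CPM in MK5-depleted and 231, 227 and 211 CPM in control libraries. Its ERK3-depleted libraries lay below control and its MK5-depleted libraries overlapped it, at log2 -0.23 (adjusted p = 0.0613) and -0.04 (adjusted p = 0.765), neither called. With the replicate block, which pairs the ERK3-depleted and control DM2 libraries, Acly was called lower (-0.24, adjusted p = 0.0246). Acss2, Scd1, Scd2 and Elovl6 were not called either, with log2 values from -0.23 (Acss2) to 0.10 (Scd1) in ERK3-depleted and from -0.16 (Elovl6) to 0.18 (Scd1) in MK5-depleted cells.

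Muscle, cell cycle and connective tissue genes were also read at DM2. Of 12 cell cycle genes, 5 were called higher and 1 lower in ERK3-depleted cells, where 55.8% of all genes were called, and 9 higher and none lower in MK5-depleted cells, where 45.1% were. The summed level of 5 myocyte markers was 833 to 1489 CPM in ERK3-depleted, 1041 to 1921 CPM in MK5-depleted and 1578 to 1965 CPM in control DM2 libraries, with Actc1 and Ckm called lower in ERK3-depleted cells and none called in MK5-depleted cells. Of 5 fibroblast markers, Col1a1 was called higher in both lines, Pdgfra lower in both, Dpt lower in ERK3-depleted and Dcn lower in MK5-depleted cells. Their summed level, 1851 to 2024 CPM in ERK3-depleted, 1620.0 to 2102 CPM in MK5-depleted and 1214 to 1501 CPM in control libraries, is mostly Col1a1, which averaged 1844, 1723 and 1251 CPM. Adipocyte markers as a list of 7 summed to 39.8 to 48.7 CPM in ERK3-depleted, 35.1 to 39.4 CPM in MK5-depleted and 42.2 to 48.3 CPM in control libraries, mostly from Cebpa. The part of differentiation state or cell makeup in the differences of the 31 genes was not tested.

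The change on differentiation, DM2 against GM, was mostly upward for the called members in control cells. There 15 of 31 members were called higher and 4 lower at DM2, in a comparison where 22.5% of all genes were called higher and 23.1% lower (45.6% in either direction). In ERK3-depleted cells 12 were called higher and 5 lower (28.9 and 26.2% of all genes, 55.1% together), and in MK5-depleted cells 13 and 7 (24.6 and 24.8%, 49.3% together). The median change of the 18 sterol synthesis genes was log2 0.31 in ERK3-depleted, 0.26 in MK5-depleted and 0.62 in control cells, against 0.01, 0.00 and -0.02 over all genes tested. TPM as deposited called 2 higher and 12 lower in ERK3-depleted, 4 higher and 9 lower in MK5-depleted and 20 higher and 1 lower in control cells, and moved the all-gene median to -0.27, -0.16 and 0.12. TPM scaled by TMM called 6 higher and 7 lower, 7 and 4, and 19 and 2. The share of all genes called in each of these fits, and in those that follow, is not given here. Changes in the counts may thus not be particular to the members. Without the 4 DM2 libraries with the most reads outside genes, 4 members were called higher and 3 lower in ERK3-depleted cells (Cyp51, Srebf2, Fasn and Acaca higher, Pmvk, Srebf1 and Acss2 lower). In MK5-depleted cells 3 were then called higher (Cyp51, Mvd and Srebf2) and 5 lower (Srebf1, Stard4, Insig2, Acss2 and Scd1). With the covariate 4 were called higher and 2 lower in ERK3-depleted cells, and 9 higher and 5 lower in MK5-depleted cells.

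**Figure D4:**
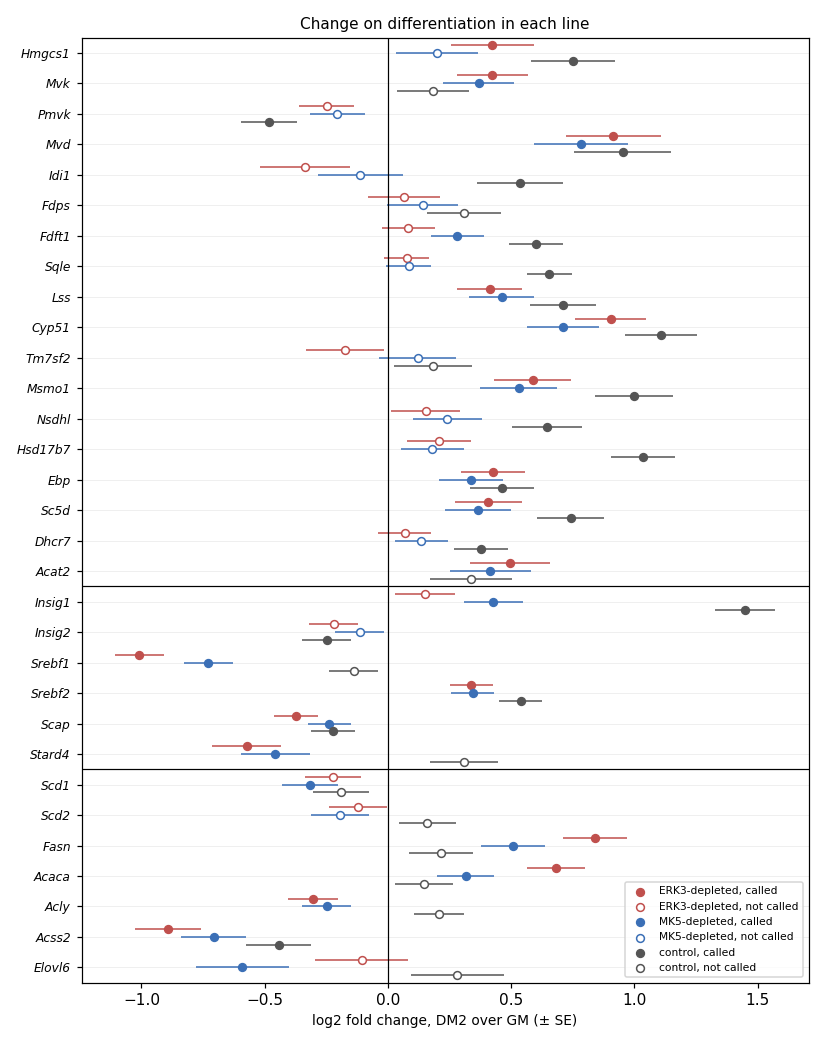
Log2 fold change of each member at DM2 over GM in ERK3-depleted (red), MK5-depleted (blue) and control (grey) cells, with ± standard error bars from 3 libraries per group. Filled points have an adjusted p under 0.05 in edgeR's quasi-likelihood test. On these uniquely mapped reads Insig1 shows the widest spread between the lines, at 0.15 in ERK3-depleted, 0.43 in MK5-depleted and 1.45 in control cells. The share of Insig1 reads that mapped uniquely differed between groups.

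In control cells the largest rises at DM2 were those of Insig1 (log2 1.45 ± 0.12, adjusted p = 3.46e-08), Cyp51, Hsd17b7 and Msmo1. Cyp51 had 721, 555 and 566 CPM in control DM2 and 338, 226 and 292 CPM in control GM libraries (log2 1.11 ± 0.15, adjusted p = 7.30e-06). It rose in ERK3-depleted cells as well, with 778, 758 and 551 CPM at DM2 and 385, 372 and 358 CPM in GM (log2 0.90 ± 0.15, adjusted p = 5.57e-05), and in MK5-depleted cells, with 619.9, 629.8 and 505 CPM at DM2 and 344, 359 and 369 CPM in GM (log2 0.71 ± 0.14, adjusted p = 0.000622). No DM2 library of Cyp51 overlapped the GM libraries of its own line. Msmo1 had 387, 337 and 281 CPM in ERK3-depleted, 391, 368 and 269 CPM in MK5-depleted and 314, 273 and 257 CPM in control DM2 libraries, each line above its own GM libraries given before. Msmo1 had log2 fold changes of 0.59 ± 0.16 (adjusted p = 0.00411) in ERK3-depleted and 0.53 ± 0.16 (adjusted p = 0.00942) in MK5-depleted cells, and it was 2.00-fold higher at DM2 in control cells (adjusted p = 5.54e-05). Both depleted-line calls of Msmo1 were lost without the 4 libraries (0.33, adjusted p = 0.19, in ERK3-depleted, and 0.20, adjusted p = 0.435, in MK5-depleted cells). Mvd rose in every line (log2 0.91 in ERK3-depleted, 0.79 in MK5-depleted and 0.95 in control cells), in ERK3-depleted cells not without the 4 libraries (0.32, adjusted p = 0.251). Srebf2 rose in all 3 lines, at 0.34 ± 0.09 (adjusted p = 0.00335) in ERK3-depleted, 0.34 ± 0.09 (adjusted p = 0.00352) in MK5-depleted and 0.54 ± 0.09 (adjusted p = 7.10e-05) in control cells.

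Pmvk and Acss2 fell in control cells, with log2 fold changes of -0.48 ± 0.11 (adjusted p = 0.00209) and -0.44 ± 0.13 (adjusted p = 0.0105). In ERK3-depleted cells, whose libraries were treated as paired across media, Pmvk was at -0.25 (adjusted p = 0.0678) and was called lower with the block (adjusted p = 0.0256). Acss2 had 11.1, 9.23 and 9.28 CPM in control DM2 libraries and 14.4, 11.7 and 14.1 CPM in control GM libraries, with no overlap. It fell in ERK3-depleted cells too, with 8.90, 8.19 and 8.16 CPM at DM2 and 13.8, 17.4 and 15.7 CPM in GM (-0.89 ± 0.14, adjusted p = 3.01e-05), and in MK5-depleted cells, with 9.28, 11.1 and 8.84 CPM at DM2 and 16.7, 17.4 and 13.6 CPM in GM (-0.71 ± 0.13, adjusted p = 0.000287). No other member of fatty acid synthesis was called in control cells. Insig2 and Scap were called lower at DM2 in control cells with adjusted p of 0.0487 and 0.048, calls that 13 of the 18 fits with 1 library left out did not make for either gene. Without control GM library 2, the lowest for most members, 13 were called higher and 2 lower in control cells. The sterol synthesis median was then 0.48, and the share of all genes called in that fit is not given here.

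Whether the lines responded differently was tested as the difference between each depleted line's change and that of control. In ERK3-depleted cells the change was called higher than in control for 2 members and lower for 8, where 14.6% of all genes were called higher and 14.0% lower (28.6% together). In MK5-depleted cells no change was called higher and 7 lower, where 8.54% of all genes were called higher and 9.48% lower (18% together). The 2 differences share the control libraries. Insig1, Srebf1, Stard4, Hsd17b7, Sqle and Acly were among the lower calls of both.

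For Insig1 the response differed from that of control by -1.30 ± 0.17 in ERK3-depleted (adjusted p = 0.000764) and by -1.02 ± 0.17 in MK5-depleted cells (adjusted p = 0.00329) on the log2 scale. Mean Insig1 levels were 113 ± 6.80 CPM at DM2 and 102 ± 11.8 CPM in GM in ERK3-depleted cells, 142 ± 1.98 and 106 ± 7.46 CPM in MK5-depleted cells, and 168 ± 17.6 and 61.7 ± 12.1 CPM in control cells (SD, n = 3 each). On RSEM counts the changes at DM2 were 0.50 in ERK3-depleted, 0.60 in MK5-depleted and 1.40 in control cells. The differences were -0.91 and -0.81 on RSEM counts, -1.22 for ERK3 with the covariate, and -1.14 and -0.86 without control GM library 2, each with an adjusted p under 0.05. Srebf1 was lower at DM2 than in GM in both depleted lines (log2 -1.01 ± 0.10 in ERK3-depleted, -0.73 ± 0.10 in MK5-depleted cells) and at -0.14 ± 0.10 (adjusted p = 0.269) in control. Its difference from control was -0.87 ± 0.14 (adjusted p = 0.00177) in ERK3-depleted and -0.59 ± 0.14 (adjusted p = 0.013) in MK5-depleted cells. The Srebf1 difference was also called with the covariate and without control GM library 2 in both lines.

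Stard4 fell at DM2 in the depleted lines, with log2 fold changes of -0.57 ± 0.14 in ERK3-depleted (adjusted p = 0.00211) and -0.46 ± 0.14 in MK5-depleted cells (adjusted p = 0.0111), and was at 0.31 ± 0.14 in control (adjusted p = 0.0772). The ERK3 fall was not called without the 4 libraries (-0.51, adjusted p = 0.0601). The difference was -0.88 ± 0.20 (adjusted p = 0.00536) for ERK3 and -0.76 ± 0.20 (adjusted p = 0.0171) for MK5, the second lost without MK5-depleted GM library 3 (adjusted p = 0.0546). Hsd17b7 rose in control cells (log2 1.04 ± 0.13, adjusted p = 3.61e-06) and was at 0.21 (adjusted p = 0.181) in ERK3-depleted and 0.18 (adjusted p = 0.251) in MK5-depleted cells. The difference was -0.83 ± 0.18 (adjusted p = 0.00519) and -0.86 ± 0.18 (adjusted p = 0.00907). Sqle had 353, 314 and 337 CPM at DM2 and 322, 301 and 329 CPM in GM in ERK3-depleted cells, 361, 352 and 336 CPM at DM2 and 338, 304 and 349 CPM in GM in MK5-depleted cells, and 401, 370.0 and 361 CPM at DM2 and 266, 203 and 249.8 CPM in GM in control cells. The control Sqle libraries separated by medium, those of both depleted lines overlapped, and the difference was -0.58 ± 0.13 (adjusted p = 0.00536) for ERK3 and -0.57 ± 0.13 (adjusted p = 0.0107) for MK5.

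In the fatty acid branch, Fasn had 170.0, 212 and 187 CPM in ERK3-depleted GM libraries, below all of that line's DM2 libraries. It rose at DM2 by 0.84 ± 0.13 in ERK3-depleted (adjusted p = 3.87e-05) and 0.51 ± 0.13 in MK5-depleted cells (adjusted p = 0.00364), and was at 0.21 ± 0.13 in control (adjusted p = 0.189). The MK5 rise was not called without the 4 libraries (0.41, adjusted p = 0.0622). Its response was above that of control in ERK3-depleted cells (0.63 ± 0.18, adjusted p = 0.0188), not without ERK3-depleted GM library 1, control GM library 1 or ERK3-depleted DM2 library 2 (highest adjusted p = 0.053), and at 0.29 ± 0.18 in MK5-depleted cells (adjusted p = 0.265). Acaca had 33.4, 36.1 and 33.6 CPM in ERK3-depleted and 30.8, 25.9 and 29.9 CPM in control GM libraries. Its difference in response was 0.54 ± 0.17 (adjusted p = 0.0238) in ERK3-depleted cells on uniquely mapped reads and -0.06 (adjusted p = 0.745) on RSEM counts. In GM Acly had 229.8, 212 and 262 CPM in ERK3-depleted, 261, 237 and 276 CPM in MK5-depleted and 217, 161 and 202 CPM in control libraries. It was lower at DM2 than in GM in both depleted lines (-0.30 ± 0.10 in ERK3-depleted, -0.25 ± 0.10 in MK5-depleted cells), calls lost without the 4 libraries (-0.27 and -0.26), and differed from control by -0.51 ± 0.14 (adjusted p = 0.0152) and -0.46 ± 0.14 (adjusted p = 0.036). Elovl6 had 68.4, 63.9 and 65.1 CPM at DM2 and 112, 78.8 and 107 CPM in GM in MK5-depleted cells, against 73.9, 82.0 and 65.0 CPM at DM2 and 67.0, 44.6 and 70.2 CPM in GM in control cells. Its MK5-depleted libraries did not overlap between media and its control libraries did, and the difference from control was -0.87 ± 0.27 (adjusted p = 0.0333). The MK5 calls of Acly and Elovl6 were lost in 7 of the 18 fits with 1 library left out each, among them those without control GM library 2.

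Idi1 had 9.92, 7.53 and 8.71 CPM in ERK3-depleted and 8.91, 5.66 and 7.56 CPM in control GM libraries, which overlapped. Idi1 and Fdft1 completed the lower responses in ERK3-depleted cells, at -0.87 ± 0.25 (adjusted p = 0.0175) and -0.52 ± 0.15 (adjusted p = 0.0191). On RSEM counts these were -0.36 (adjusted p = 0.218) and -0.40 (adjusted p = 0.0526). The calls below from fits with a covariate or with libraries left out come without the share of all genes called. With a covariate for reads outside genes, the ERK3 differences of Insig1 and Srebf1 were the 2 still called, and without the 4 libraries with the most such reads those of Insig1, Srebf1 and Sqle were. For MK5 the counts in those fits were 7 and 6, the second without Srebf1, Acly and Elovl6 and with Hmgcs1 and Msmo1. Of 5 myocyte markers, where 28.6 and 18% of all genes were called, 4 had a lower response in ERK3-depleted than in control cells (Myog by log2 -1.72 ± 0.48, adjusted p = 0.0162) and 1 in MK5-depleted cells (Actc1, -1.51 ± 0.44, adjusted p = 0.0284). The part of differentiation state in the sterol gene responses was not tested.

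The depleted lines were not called different from each other for any member, where 0.0% of all genes tested were called in either medium. In GM, MK5-depleted minus ERK3-depleted cells had log2 values of -0.26 (Ebp) to 0.38 (Elovl6), with 2 members at an unadjusted p under 0.05 and none called by DESeq2. At DM2 the values ran from -0.35 (Ebp) to 0.49 (Idi1), with 8 members at an unadjusted p under 0.05 and none called by DESeq2. Insig1 was higher in all 3 MK5-depleted than in all 3 ERK3-depleted DM2 libraries (log2 0.33 ± 0.12, adjusted p = 0.172, 95% interval 0.09 to 0.56). Its uniquely mapped reads averaged 60.6% of RSEM's count in MK5-depleted and 53.3% in ERK3-depleted DM2 libraries. For Idi1 these shares were 3.19 and 2.51%. The DM2 differences of both genes are thus uncertain in size, and the interval does not cover this. Same-numbered libraries of these 2 DM2 groups deviated together (correlations of 0.28 to 0.50). So did ERK3-depleted library 1 with MK5-depleted library 2 (0.12) and ERK3-depleted library 2 with MK5-depleted library 1 (0.14). Library 3 of each line opposed libraries 1 and 2 of the other (-0.29 to -0.37). Pairing by number thus cannot be told apart from a split of libraries 1 and 2 from 3. With the number as a block 1 member was called, Ebp, lower in MK5-depleted cells (log2 -0.34, adjusted p = 0.0404). Without ERK3-depleted DM2 library 3, 4 members were called higher and 4 lower in MK5-depleted cells. The share of all genes called in that fit is not given here, so this count may not be particular to the members.

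The same pathways hold genes outside the 31. Of 8 genes that cut, hold back or break down the SREBP and Insig proteins, none was called in GM in either depleted line. At DM2, where 55.8 and 45.1% of all genes tested were called, 1 was called higher and 6 lower in ERK3-depleted cells, and 1 higher and 5 lower in MK5-depleted cells. Mbtps2, the Golgi protease that releases SREBPs, was lower in both (log2 -0.79 ± 0.12, adjusted p = 3.92e-05 in ERK3-depleted, and -0.72 ± 0.12, adjusted p = 0.000181 in MK5-depleted cells). Aup1, a lipid droplet protein that works with ubiquitin ligases in sterol-driven protein breakdown, was higher in both (1.06 ± 0.12, adjusted p = 5.25e-06, and 0.72 ± 0.12, adjusted p = 0.000213). Rnf139, an endoplasmic reticulum ubiquitin ligase, was lower in both (-0.54 and -0.54).

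Of 12 genes of sterol transport and storage, 1 was called higher and 1 lower in ERK3-depleted GM cells, and 2 higher and 1 lower in MK5-depleted GM cells (6.79 and 8.45% of all genes called). Tmem97, a membrane protein tied to cholesterol uptake and Npc1 levels, was higher in GM in both lines (0.59 ± 0.10, adjusted p = 0.00888, and 0.69 ± 0.10, adjusted p = 0.00268) and at DM2 in both (0.59 and 0.72). Vldlr, a lipoprotein receptor, was lower in GM in both lines (-1.21 and -1.27) and at DM2 (-0.70 and -1.06). At DM2, 3 of the 12 were called higher and 4 lower in ERK3-depleted cells, and 1 higher and 4 lower in MK5-depleted cells, shares close to the 55.8 and 45.1% of all genes. Npc1, which exports cholesterol from lysosomes, rose at DM2 in every line (0.53 in ERK3-depleted, 0.45 in MK5-depleted and 0.65 in control cells).

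Of 10 other genes of fatty acid elongation and desaturation, none was called in ERK3-depleted and 2 higher in MK5-depleted GM cells, the desaturases Fads1 (0.44 ± 0.10, adjusted p = 0.0134) and Fads2 (0.79 ± 0.23, adjusted p = 0.0441). At DM2, 1 was called higher and 2 lower in ERK3-depleted cells, Fads2 among the lower (-0.78 ± 0.23, adjusted p = 0.00953), and 2 higher and none lower in MK5-depleted cells, fewer than the 55.8 and 45.1% of all genes called. Of 8 genes of the isoprenoid branches, Ggps1, which makes geranylgeranyl diphosphate from the product of Fdps, was lower at DM2 in both lines (-0.89 ± 0.13, adjusted p = 2.24e-05, and -0.67 ± 0.13, adjusted p = 0.000443). No other gene of those branches was called lower at DM2, and 1 was called higher, Fntb in MK5-depleted cells (0.22).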

How the data were processed

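RNA was measured by polyA-selected, stranded RNA-seq (KAPA kit, per the labels' protocols) in 18 libraries of 3 stable C2C12 lines in 2 conditions. The 31 genes and the other gene lists were chosen with earlier results of these data known. Reads were demultiplexed with bcl2fastq 2.17, aligned with STAR 2.5.1b and quantified with RSEM 1.2.28 on GRCm38, per the submitters' processing notes. Which annotation was used is not given in the sources used here; 50376 of 50600 identifiers matched GENCODE M21, which supplied names and positions.

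Tests ran on the deposited STAR gene counts, which hold uniquely mapped reads, in the reverse-strand column (92.8 to 95.3% of stranded counts). Summary lines for unassigned reads, 21.7 to 35.8% of all reads, were left out. Gene counts summed to 17.5 to 23.4 M per library, so counting error is small beside the spread between libraries for most members. edgeR 4.0.16 in R 4.3.3 was used with filterByExpr, TMM scaling and 1 robust quasi-likelihood model of 6 group means (residual degrees of freedom 12). The 11 contrasts, 2 of them differences between responses, were each adjusted by Benjamini-Hochberg over 13939 genes, and p-values are two-sided. The standard error is the log2 fold change divided by the root of F. Overlapping genes on one strand cannot be told apart.

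Alternatives used DESeq2 1.42.0, limma 3.58.1 on log2(TPM + 1) of the deposited TPM, the authors' RSEM expected counts rounded to whole numbers, other scalings, filters and covariates, a replicate block, and each library left out. The deposited transcript lengths and other columns with no fixed unit were used as file-given values only. No 2 libraries of the same group were alike within counting noise (chi-square per gene 7.98 to 87.2). Pairs from different groups were not checked. Same-numbered libraries deviated together (every correlation above 0.1) for ERK3-depleted and control cells in each medium, MK5-depleted and control cells in GM, ERK3-depleted cells across media and the depleted lines at DM2. Those groups were treated as paired, which is inferred from these correlations. For the depleted lines at DM2 it cannot be told apart from a split of libraries 1 and 2 from 3. The main fit was also run on simulated counts with known fold changes between ERK3-depleted and control GM libraries. Those counts had no outlying libraries and no pairing, so the run does not cover either. By the rule for named genes, per-library values were given for the 6 regulators and, in each group of genes and comparison, for the 3 called members with the largest log2 fold change; those of other members were added after seeing the data. Promoters came from RefSeq.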

Additional observations from a re-analysis of the deposited data

Results flagged for a closer look

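In 17 cases the change on differentiation differed between a depleted line and control by the test of that difference (edgeR adjusted p under 0.05 over all genes). The values are the log2 change at DM2 over GM in the depleted line minus that in control cells. The 2 sets share the control libraries, and a difference of this kind was called for 28.6% of all genes in ERK3-depleted and 18% in MK5-depleted cells.

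In ERK3-depleted cells the response was lower than in control for Idi1 (-0.87), Fdft1 (-0.52), Sqle (-0.58), Hsd17b7 (-0.83), Insig1 (-1.30), Srebf1 (-0.87), Stard4 (-0.88) and Acly (-0.51). It was higher for Fasn (0.63) and Acaca (0.54), the second of uncertain direction because RSEM counts gave -0.06. On RSEM counts the ERK3 differences of Idi1 and Fdft1 were not called. With the covariate for reads outside genes, only those of Insig1 and Srebf1 were still called. In MK5-depleted cells the response was lower for Sqle (-0.57), Hsd17b7 (-0.86), Insig1 (-1.02), Srebf1 (-0.59), Stard4 (-0.76), Acly (-0.46) and Elovl6 (-0.87). On uniquely mapped reads Insig1 had the largest difference in both lines. Its responses were 0.15 ± 0.12 in ERK3-depleted, 0.43 ± 0.12 in MK5-depleted and 1.45 ± 0.12 in control cells. Uniquely mapped reads averaged 53.3, 60.6 and 70.0% of RSEM's count of Insig1 in those DM2 groups. On RSEM counts the Insig1 differences were smaller and still called, and whether they rank first there is not given here.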

How the results depend on the processing

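In GM the medians of all 3 groups of genes were above 0 in both depleted lines in every alternative run, while the number of calls moved. Shares of all genes called in these runs are not given here, so members and other genes may have moved alike. ERK3-depleted GM cells had 11 members called, 18 with the replicate block, 21 with the block and length and GC trends removed, 19 without a filter on low counts and 0 in TPM as deposited, and the MK5-depleted GM count of 19 was 6 in TPM. At DM2 the ERK3 count of 14 was 4 without the 4 libraries with the most reads outside genes, 3 with their share as a covariate and 25 in TPM, and the MK5 count of 10 was 6 without those libraries. The ERK3-depleted response (17) had 7 and 6 calls in those 2 fits, and the MK5-depleted response (20) had 8 without those libraries, 13 in TPM and 11 in TPM scaled by TMM, a scaling added after the data had been seen. The ERK3 difference in response (10) had 3 calls without those libraries, 2 with the covariate and 27 in TPM. The MK5 difference (7) had 4 with length and GC trends removed, 12 without a filter, 12 in scaled TPM and 19 in TPM. MK5-depleted against ERK3-depleted cells (0) had 1 call in GM without a filter, and at DM2 4 without a filter, 1 with the block and 2 with the block and length and GC trends removed. The replicate block shared by all groups took away no call of a single gene and added 20: those named in the report, and in groups not treated as paired, or for a difference, Tm7sf2 and Hsd17b7 in MK5-depleted cells at DM2, Fdps, Stard4 and Acly in the control response, and Nsdhl in the ERK3 and Idi1 in the MK5 difference. A block within each line, run for the responses and their differences, took away 4 calls and added 6. By edgeR's adjusted p, it lost Hmgcs1 in the ERK3-depleted response (0.0613) and Acat2 (0.0551) and Elovl6 (0.0742) in the MK5-depleted response. Elovl6 in the MK5 difference was lost as well (0.0936). Leaving out 1 library at a time gave 0 to 17 calls for ERK3-depleted and 2 to 21 for MK5-depleted GM cells, 12 to 15 and 8 to 13 at DM2, 13 to 17, 10 to 20 and 15 to 22 for the responses of ERK3-depleted, MK5-depleted and control cells, 8 to 11 and 4 to 9 for the differences, and 0 to 0 and 0 to 8 for MK5-depleted against ERK3-depleted cells in GM and at DM2. The MK5-depleted response had 12 calls without MK5-depleted DM2 library 1, 11 without GM library 1 and 10 without GM library 3, and the MK5 difference had 4 without GM library 3. Values with the other sign came mostly from TPM, whose all-gene median was itself shifted. There they were, on the log2 scale, Hmgcs1 -0.50, Fdps -0.30, Lss -1.14, Cyp51 -0.77, Tm7sf2 -0.32, Nsdhl -0.72, Ebp -0.40, Dhcr7 -0.56, Acat2 -0.11, Scd1 -0.52, Scd2 -0.58 and Acaca -0.81 for ERK3-depleted and Lss -0.50, Dhcr7 -0.045, Insig2 -0.65 and Acaca -0.54 for MK5-depleted over control at DM2, Fdps -0.44, Lss -0.67, Ebp -0.016, Sc5d -0.24, Acat2 -0.11 and Acaca -0.23 for the ERK3-depleted, Lss -0.14, Sc5d -0.012 and Acaca -0.34 for the MK5-depleted and Insig2 0.12 for the control response, and Acat2 -0.67, Insig2 -0.83 and Acaca -0.78 for the ERK3 and Acaca -0.89 for the MK5 difference. In scaled TPM they were Idi1 0.014, Lss -0.64 and Acaca -0.34 for ERK3-depleted and Lss -0.19, Insig2 -0.34 and Acaca -0.25 for MK5-depleted over control at DM2, Lss -0.37 and Acaca -0.18 for the ERK3-depleted and MK5-depleted responses, and Insig2 -0.40 and Acaca -0.37 and Acaca -0.61 for the ERK3 and MK5 differences. RSEM counts turned Idi1 in ERK3-depleted cells at DM2 (0.098), and Acaca in the MK5-depleted response (-0.051) and the ERK3 difference (-0.061). The ERK3-depleted response of Mvk was -0.010 with the covariate and -0.062 without the 4 libraries, where Ebp at DM2 was -0.023, and Srebf2 in ERK3-depleted cells at DM2 was 0.17 with the block and length and GC trends removed. The causes were not tested, apart from the smaller number of libraries where some were left out. Idi1, Fdps and Tm7sf2 have the fewest uniquely mapped reads of the sterol enzymes, which limits them most. For Idi1 and Fdps these reads were 2.13 to 4.66% and 6.20 to 7.96% of RSEM's expected counts, so depth is not their main limit.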

Other observations

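Lipid breakdown and export genes outside the 31 were read at DM2, where 55.8% of all genes tested were called in ERK3-depleted and 45.1% in MK5-depleted cells (27.8 and 22.9% called lower). Of 9 fatty acid oxidation genes tested, 6 were called lower and none higher in ERK3-depleted cells at DM2, and 5 lower and none higher in MK5-depleted cells. Cpt1a, which carries fatty acids into mitochondria, was lower in GM (log2 -0.51 ± 0.09, adjusted p = 0.00952 in ERK3-depleted, and -0.45 ± 0.09, adjusted p = 0.00884 in MK5-depleted cells, edgeR) and at DM2 (-0.87 ± 0.09, adjusted p = 4.54e-06, and -0.73 ± 0.09, adjusted p = 2.92e-05). Of 6 liver X receptor genes and targets, 1 was called higher and 2 lower in ERK3-depleted cells at DM2, and none higher and 3 lower in MK5-depleted cells. The higher one was Nr1h2, a liver X receptor gene (0.34 ± 0.09, adjusted p = 0.00351). In GM none was called higher, and 1 and 2 were called lower, where 6.79 and 8.45% of all genes were called. Abcg1, a sterol exporter, was lower in GM (-1.05 ± 0.31, adjusted p = 0.0469, and -1.37 ± 0.31, adjusted p = 0.0141) and at DM2 (-1.14 and -0.99). Mylip, a ubiquitin ligase that breaks down lipoprotein receptors, was lower at DM2 in both lines (-1.17 and -1.13).

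Of 15 genes of acyl-CoA, NADPH and glycerolipid supply, 2 were called higher and 6 lower in ERK3-depleted cells at DM2, and 1 higher and 5 lower in MK5-depleted cells, counts close to the shares of all genes called. Gpam, which starts glycerolipid synthesis, was lower, at -2.42 ± 0.44 (adjusted p = 0.000305) in ERK3-depleted and -1.40 ± 0.41 (adjusted p = 0.012) in MK5-depleted cells.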
